A study of Mus musculus with 2 samples.

Results

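The miRNA genes followed here are those of the microglia and leukocyte lineage, Mir142, Mir150, Mir223 and Mir511, in adult mouse cortex. Their rule uses gene symbols and no measured value. The symbol Mir142 covers both Mir142 and the gene on its opposite strand, Mir142b, so the group holds 5 of the 2202 miRNA genes in the tables. The left cerebral cortex came from 2 females of B6CASTF1/J aged 2 months, and RNA under 30 nucleotides was sequenced in 1 library per animal. B6CASTF1/J animals are the first generation of a cross between a C57BL strain and CAST, a strain of wild origin. The animals are numbered separately in the labels, which also give both the same donor identifier, and are called animal 1 and animal 2 after their replicate numbers. No treatment, genotype or age was contrasted, so the levels of the members and their spread between the animals are what the design can give.

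A miRNA is cut from a hairpin precursor. One or both arms of the hairpin become a mature strand that guides repression of messenger RNAs, and the seed, bases 2 to 8 of that strand, is the main determinant of which messengers are bound. miR-142 is found across blood-forming lineages, including microglia, the resident macrophages of the brain. miR-150 marks mature lymphocytes, where it represses the transcription factor gene Myb. miR-223 is a myeloid miRNA, abundant in neutrophils and carried by platelets, and miR-511 is made from an intron of Mrc1, the gene of the macrophage mannose receptor, which in brain marks macrophages at vessels and borders more than microglia in the tissue itself.

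The mature sequences below are those for which the RefSeq table, built on GRCm38.p6, had an entry. They are shown because the seeds separate these listed strands from each other and from the other mature names in that table. Each runs 5′ to 3′ with the seed in capitals.
mmu-miR-142a-5p: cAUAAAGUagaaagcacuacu
mmu-miR-142a-3p: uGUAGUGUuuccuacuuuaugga
mmu-miR-142b: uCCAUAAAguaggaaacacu
mmu-miR-150-3p: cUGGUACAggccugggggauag
mmu-miR-223-5p: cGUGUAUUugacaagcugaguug
mmu-miR-223-3p: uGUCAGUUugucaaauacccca
mmu-miR-511-3p: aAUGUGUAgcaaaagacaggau
These 7 mature strands had 7 different seeds, and none of the seeds recurred in another of the 1679 mature names in the table. The 7 strands thus share no seed; miR-150-5p and miR-511-5p were not analysed here. GC content ran from 33.3% in miR-142a-5p to 63.6% in miR-150-3p.

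The hairpins of 4 members were in the same table. They are shown with the listed mature strands in capitals, because the position of the strands bears on how reads at Mir142 and Mir142b could be assigned.
Mir142: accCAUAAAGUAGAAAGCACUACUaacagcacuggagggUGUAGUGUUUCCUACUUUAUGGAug
Mir142b: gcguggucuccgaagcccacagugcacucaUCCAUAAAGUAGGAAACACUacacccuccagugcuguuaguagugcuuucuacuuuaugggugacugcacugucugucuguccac
Mir223: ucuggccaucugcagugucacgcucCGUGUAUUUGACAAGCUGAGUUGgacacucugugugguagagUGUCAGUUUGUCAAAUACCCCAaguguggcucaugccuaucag
Mir511: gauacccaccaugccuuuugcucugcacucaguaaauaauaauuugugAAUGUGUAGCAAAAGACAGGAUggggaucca
The reverse complement of the whole 64-base Mir142 hairpin lies within the 115-base Mir142b hairpin, at positions 29 to 92 counted from its 5′ end. The 20 bases of miR-142b are likewise contained in the reverse complement of miR-142a-3p, so a read of either strand is told from the other only by its orientation. On the same strand, the longest run that any of the 4 hairpins shared with a different hairpin of the table was 13 bases for Mir142 (with Mir3964) and for Mir142b (with Mir1960), 12 for Mir223 (with Mir193a) and 11 for Mir511 (with Mir6924). All of these are shorter than the mature strands, which have 20 to 23 bases. No hairpin of Mir150 was available, so sharing with other hairpins was not checked for it. Predicted minimum free energies were -26.9 kcal/mol for Mir142, -50.6 kcal/mol for Mir142b, -44 kcal/mol for Mir223 and -27.4 kcal/mol for Mir511, with 67.8 to 75.9% of bases paired.

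**Figure D1:**
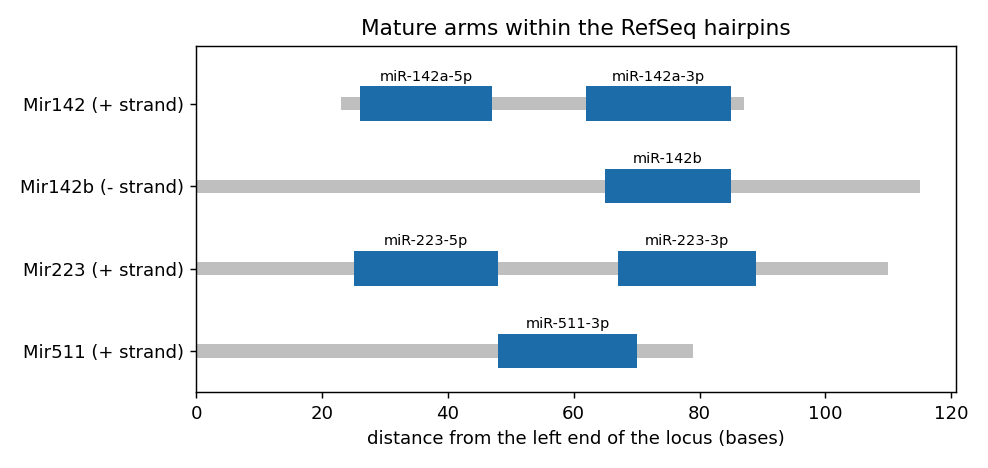
Positions of the mature strands (blue) within the hairpins (grey) of 4 members, as distance in bases from the left end of each locus; Mir142 and Mir142b share a locus and are drawn on 1 scale. The miR-142b strand lies across from miR-142a-3p, while Mir223 carries a strand on each arm.

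The members lie on 4 chromosomes, and their surroundings differ. Mir142 (ENSMUSG00000105196.1) is at chr11:87756864-87756927 on the plus strand of mm10, in intron 1 of the noncoding gene Mir142hg. Mir142b (ENSMUSG00000065420.2) is at chr11:87756841-87756955 on the minus strand. Mir150 (ENSMUSG00000065495.1) is at chr7:45121757-45121821 on the plus strand and overlaps no annotated gene in GENCODE M21. Mir223 (ENSMUSG00000076066.1) is at chrX:96242817-96242926 on the plus strand, in the last exon of both annotated transcripts of the noncoding gene F630028O10Rik and 4.28 kb from Vsig4, which encodes a macrophage complement receptor. Mir511 (ENSMUSG00000077897.1) is at chr2:14261003-14261081, in intron 5 of Mrc1 on the same strand. Apart from the pair at Mir142, no member had another miRNA gene within 5 kb; the nearest to Mir150 was Mir5121 at 5.1 kb, on the opposite strand.

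The deposited gene counts summed to 4415759 in animal 1 and 2279562 in animal 2, which is 32.6% and 22.5% of reads. Levels are given as CPM, a gene's count over that sum times 1000000, and counts join both arms of a hairpin. A count of 0 allows up to 3 counts, which is 0.679 and 1.32 CPM in animals 1 and 2. Reads mapping to several places were listed separately, as 48.9% and 48.2% of mapped reads, and their treatment at genes is not stated in the material used here. Intervals are exact Clopper-Pearson 95% intervals and cover counting error only, since without molecular identifiers several PCR reads can stem from 1 molecule. With 1 library per animal, a difference between the mice cannot be told apart from one between the preparations.

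Mir150 accounted for nearly all of the members' signal, and Mir142 was lower by more than an order of magnitude. Mir223 was a few CPM in level, and Mir511 and Mir142b had at most 3 counts. Detection was set at a level of at least 2 CPM in both libraries, which 3 of the 5 members reached. Of all 2202 genes, 18.8% were detected, and 66.1% had 0 counts in both animals. In bulk tissue, fewer cells of a type and less RNA per cell cannot be told apart, and these counts do not show which cells a miRNA came from.

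Mir150 had 5823 counts in animal 1 and 3802 in animal 2. These are 1319 CPM (interval 1285 to 1353) and 1668 CPM (1615 to 1722), with a mean of 1493 ± 247 CPM (SD, n = 2). The intervals did not overlap, and animal 2 was the higher. Mir150 ranked 80 of 2202 in animal 1 and 79 in animal 2, so its place among miRNA genes was nearly the same in both. It made up 97.4% of the members' summed counts in animal 1 (interval 97.0 to 97.8%) and 97.3% in animal 2 (96.8 to 97.8%).

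Mir142, the member shared by most blood cell lineages, had 140 counts in animal 1 and 80 in animal 2. These are 31.7 CPM (26.7 to 37.4) and 35.1 CPM (27.8 to 43.7), with a mean of 33.4 ± 2.4 CPM (SD, n = 2) and ranks of 255 and 245. The intervals overlapped over most of their length. Of the 3 detected members, Mir142 had the smallest spread between animals relative to its mean.

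The myeloid miRNA gene Mir223 had 12 counts in animal 1 and 20 in animal 2, although the second library held fewer counts in all. Its level was 2.72 CPM (1.40 to 4.75) in animal 1 and 8.77 CPM (5.36 to 13.6) in animal 2, with a mean of 5.75 ± 4.28 CPM (SD, n = 2). The intervals did not overlap. In animal 1 Mir223 was close to the threshold of 2 CPM, and its interval reached below it; its ranks were 410 and 332.

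Mir511 had 3 counts in each animal, or 0.679 CPM (0.140 to 1.99) and 1.32 CPM (0.271 to 3.85), and it was 1 of 36 genes with this count in animal 1 and 1 of 32 in animal 2. Mir142b had 0 counts in animal 1 and 1 count in animal 2, the latter 0.439 CPM with an interval of 0.0111 to 2.44. Neither was detected, and at this depth neither could be told apart from the level that a count of 0 allows. Mrc1 itself was not measured, because the libraries held small RNA only.

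**Figure D2:**
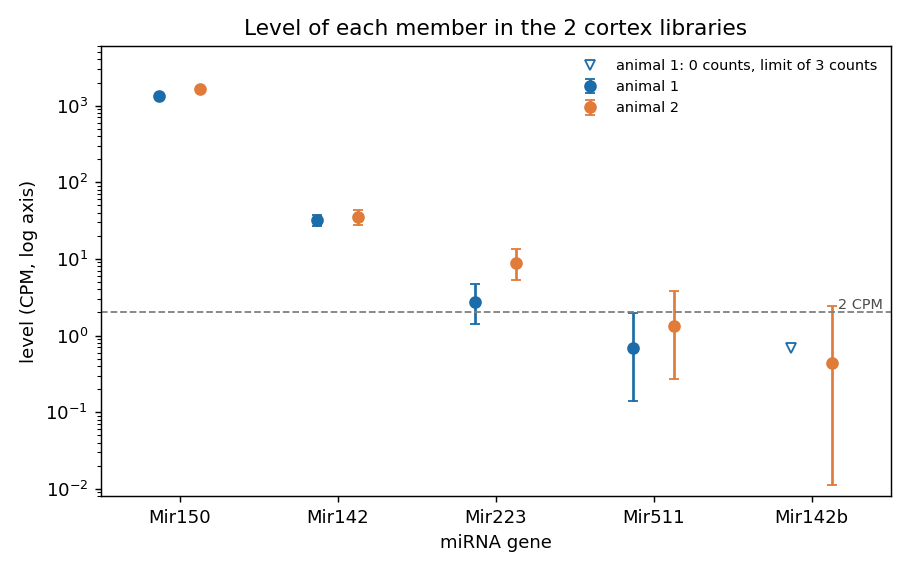
Level of each member in CPM on a log axis, with exact 95% counting intervals, for animal 1 (blue) and animal 2 (orange); the open triangle marks the limit of 3 counts where animal 1 had 0 counts, and the dashed line marks 2 CPM. Mir150 lies above 1000 CPM in both animals, Mir142 near 33.4 CPM, and Mir511 and Mir142b below the line in both.

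The order of levels was the same in CPM and in CPM per base of the annotated gene. Per base, the mean levels were 23.0 for Mir150, 0.522 for Mir142, 0.0522 for Mir223, 0.0126 for Mir511 and 0.00191 for Mir142b. A miRNA read covers a mature strand and not the whole annotated gene, so the length scaling changes these ratios without adding precision.

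The step from Mir150 to Mir142 was clear of counting error in both libraries. The level per base of Mir150 was 41.0 times that of Mir142 in animal 1 (interval 34.6 to 48.8) and 46.8 times in animal 2 (37.5 to 59.1), and these intervals overlap. The step from Mir142 to Mir223 was 20.1 times in animal 1 (11.1 to 39.7) and 6.88 times in animal 2 (4.17 to 11.9), again per base. Raw counts gave smaller steps, 11.7 times (6.47 to 23.1) in animal 1 and 4 times (2.43 to 6.90) in animal 2. On both scales the step was smaller in animal 2, with intervals that just overlap. The step from Mir223 to Mir511 was 2.87 times per base in animal 1 (0.775 to 15.9), which includes 1, and 4.79 times in animal 2 (1.42 to 25.2). On raw counts it was 4 times (1.08 to 22.1) and 6.67 times (1.98 to 35.0). In animal 1 Mir223 was above Mir511 on both scales, but the interval left out 1 only on raw counts. The order of Mir511 and Mir142b was not resolved in either library.

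Mir150 and Mir223 were higher in animal 2, and Mir142 differed between the animals by less than counting error. A gene was called outside counting error when the exact interval of animal 1's share of its summed counts left out 66.0%, the share given by the library totals. Among all 415 detected genes, 56.6% were outside counting error in either direction, 27.0% higher in animal 1 and 29.6% higher in animal 2. Of the 3 detected members, 2 were outside, near the share of all detected genes in either direction. Both were higher in animal 2, where the share of all detected genes was 29.6%. The comparison is between 2 libraries of 1 condition and carries no p-value.

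Mir150 was 1.26-fold higher in animal 2, with a counting interval of 1.21 to 1.32. On the log2(CPM + 1) scale used for all genes, this is a difference of -0.34 for animal 1 over animal 2. Detected genes at 1000 CPM or more had a median absolute log2 ratio of 0.24, and 90.0% of these 100 genes were outside counting error. The difference of Mir150 was larger than counting error, as that of most genes at its level was.

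Mir223 was 3.23-fold higher in animal 2, with an interval of 1.50 to 7.24. Its log2 ratio was -1.39 on the log2(CPM + 1) scale, and 12 of the 415 detected genes had a lower one. Among the 93 detected genes at a mean of 2 to 10 CPM, 20.4% were outside counting error and the median absolute log2 ratio was 0.30. Mir223 therefore stood toward the edge of its range of levels, on 32 counts in all.

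Mir142 was inside counting error. Its fold in animal 2 over animal 1 was 1.11, with an interval of 0.83 to 1.47, and its log2 ratio was -0.14. Mir142 lies in the range of 10 to 100 CPM, where 37.7% of genes were outside and the median absolute log2 ratio was 0.36. The interval for Mir511, 0.259 to 14.5-fold, included differences in either direction.

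**Figure D3:**
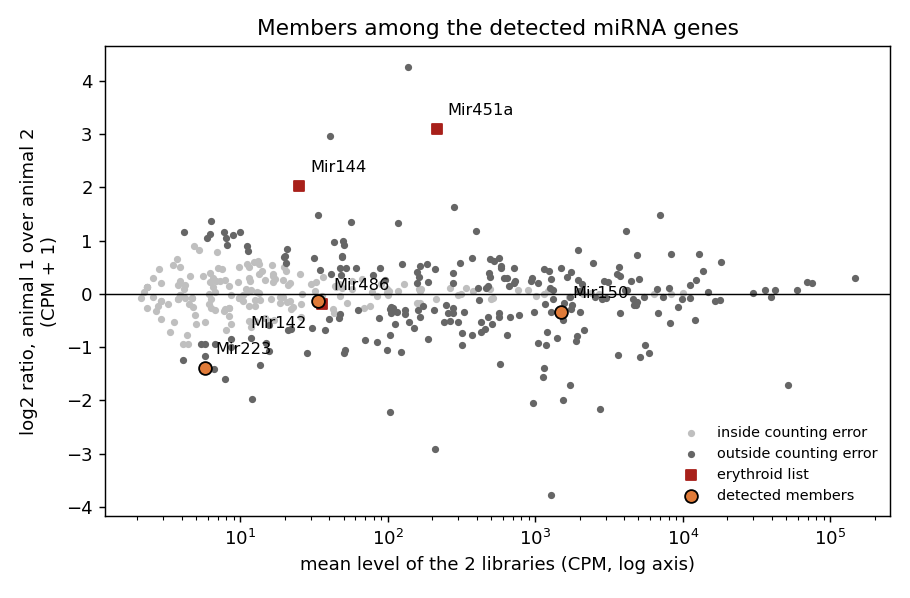
Log2 ratio of animal 1 over animal 2, on CPM + 1, against mean level in CPM (log axis) for the 415 detected miRNA genes; light and dark grey points lie inside and outside counting error, circles are the 3 detected members and squares the 3 erythroid miRNA genes. The members lie at or below 0, between -0.14 and -1.39, while Mir451a and Mir144 lie at 3.10 and 2.03.

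Of the red cell miRNA genes, which mark blood in tissue, 2 of 3 had the other direction. They were higher in animal 1 beyond counting error, as were 27.0% of all 415 detected genes. Mir451a, the main erythroid miRNA, stood at 385 CPM in animal 1 against 43.9 CPM in animal 2. Mir144, its cluster neighbour, stood at 40.8 against 9.21 CPM, and Mir486 at 33.5 against 38.2 CPM differed by less than counting error. Mir486 overlaps Mir3107 on the opposite strand. No mature sequence of Mir486 was available to check for copies elsewhere. The list sum was 459 and 91.2 CPM in animals 1 and 2, with no gene at 0, and Mir451a alone held 385 and 43.9 CPM of it. The members' sum was 1354 CPM and 1713 CPM, nearly all of it Mir150. Without Mir150 it was 35.1 and 45.6 CPM. The endothelial miRNA gene Mir126a and the mural cell genes Mir143 and Mir145a were all higher in animal 2 beyond counting error, with log2 ratios of -0.55, -0.16 and -0.52. At their levels most genes were outside counting error, 90.0% at 1000 CPM or more and 80.0% at 100 to 1000 CPM. The part of blood or vessel content in the members' levels was not tested.

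In the neuron list, 6 of 9 genes were detected, against 18.8% of all 2202 genes, led by Mir132, Mir128-1 and Mir138-1. Their detection does not check the tissue label, because the lists were chosen with earlier results of these data known. Summed neuron list levels were 55542 and 102132 CPM in animals 1 and 2, of which Mir132 alone held 24389 and 79576 CPM. Of the 6 detected neuron genes, 4 were higher in animal 1 and 2 in animal 2, with a median log2 ratio of 0.37. All 6 had a mean above 1000 CPM, where 90.0% of detected genes were outside counting error. Mir128-1 and Mir128-2 share mature sequence, as do Mir138-1 and Mir138-2, so their counts are uncertain and the 6 genes are not independent. The 3 Mir124a copies, which are neuronal, had at most 11 counts each, and reads common to such copies may have entered the several-place entry.

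Nearly all of the other miRNA genes listed for roles in immune cells were detected. The list held 12 genes, of which 11 were detected, against 18.8% of all 2202 genes. Medians over the 12 were 284 and 270 CPM in animals 1 and 2. The medians over all 2202 genes were 0 in both, as 66.1% of genes had 0 counts in both animals. Medians over the 5 members were 2.72 and 8.77 CPM. Because the list was chosen with earlier results of these data known, its detection and medians are no test. Many of the listed genes are also expressed outside immune cells, so their level is no measure of leukocytes. Of the 11 detected, 6 had the higher level in animal 2 beyond counting error, 1 in animal 1, and the other 4 did not differ beyond it. The 1 higher in animal 1 was Mir16-1. It shares mature sequence with another hairpin, as do Mir181a-1, Mir181a-2, Mir181b-1 and Mir181b-2. Their counts are therefore uncertain, and the 11 genes are not independent. Of all detected genes 56.6% were outside in either direction, and the 7 of 11 outside here are near that share. By direction, 29.6% of all detected genes were higher in animal 2 and 27.0% in animal 1. The 6 and 1 of 11 here are not near those shares, and the difference was not tested.

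Mir342, in the list for its expression in B cells, led with 4467 and 5173 CPM in animals 1 and 2. Mir181b-2, of a family that acts in lymphocyte development, had 1468 and 1654 CPM, close to Mir150, but its mature sequence also occurs in the Mir181b-1 hairpin and its count is uncertain. Mir21a, induced in activated immune cells and astrocytes, had 376 and 1562 CPM and the lowest log2 ratio of the list, -2.05. The direction of Mir21a was that of Mir150 and Mir223, with a larger difference than that of Mir150. Against Mir223 the size was not resolved. Without a pseudocount, the counting interval of the log2 ratio was -2.14 to -1.97 for Mir21a, inside the -2.86 to -0.59 of Mir223.

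Inducible miRNAs of inflammation spread over much of the members' range in CPM below Mir150, though not down to the mean levels of Mir511 and Mir142b. Mir146, which dampens Toll-like receptor signalling, had 407 and 601 CPM in animals 1 and 2, below Mir150 and above Mir142. Mir155, induced in activated macrophages and lymphocytes, had 34.9 and 29.8 CPM, level with Mir142, and was inside counting error. Mir146b had 12.0 and 11.4 CPM, between Mir142 and Mir223, and was also inside counting error. Mir147, induced in stimulated macrophages, had 3 and 6 counts and was the listed gene not detected in both animals. Mir155 and Mir142 thus stood at like levels, while Mir223 and Mir511 were near the low end where Mir147 lay.

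For each detected member the 3 genes with the closest pair of log2(CPM + 1) values were found, a measure of likeness over 2 libraries only. Nearest to Mir142 were Mir486, Mir6236 and Mir25, at distances of 0.14 to 0.16. Nearest to Mir150 were Mir154, Mir181b-2 and Mir434, at 0.12 to 0.30; Mir154 had 1288 and 1801 CPM. Nearest to Mir223 were Mir7658, Mir3058 and Gm22650, at 0.18 to 0.32, each with 14 to 23 counts per library.

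Reads at the Mir142 locus lay almost wholly on the Mir142 strand. Mir142 had 140 and 80 counts on the read strand, against 0 and 1 at Mir142b. In the column that ignores strand, both genes had 0 counts in both animals, since the genes overlap on opposite strands. The entry for ambiguous reads, 0 with strand, held 280135 and 149823 reads in that column. Mir150 had 5826 counts without regard to strand in animal 1 and 3 on the opposite strand, and in animal 2 it had 3802 and 0. Mir223 and Mir511 had the same counts with and without strand, and 0 on the opposite strand. Strand information was thus needed for Mir142 and made little difference for the other detected members.

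**Figure D4:**
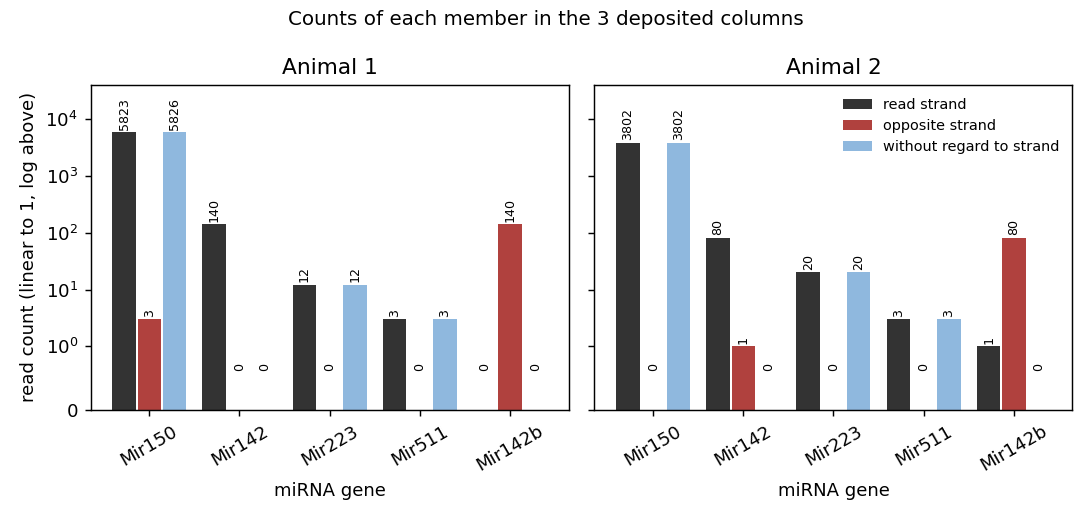
Read counts of each member in the 3 deposited columns, for the read strand, the opposite strand and without regard to strand, in each animal; the axis is linear to 1 and logarithmic above, and the number is printed above each bar. The 140 and 80 counts of Mir142 appear at Mir142b on the opposite strand and are absent from the column without strand.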

How the data were processed

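Small RNA libraries of 2 mice were treated as 1 group, with the labels' replicate numbers. The authors deposited unnormalized read counts per miRNA gene, a table for each library. Build mm10 and GENCODE M21 are named in text deposited beside them; the sources used here do not name the aligner or the read filters. The tables have 3 unnamed count columns, whose roles were read from the values; the strand-assigned column was used. The 4 summary entries, which name no gene, were left out of totals: 23.4% of reads in animal 1 and 47.1% in animal 2 were unmapped, 37.4% and 25.5% mapped to several places, and 6.52% and 4.91% fell at no gene. All 2202 identifiers matched the annotation.

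CPM, exact intervals (scipy 1.17.1) and log2(CPM + 1) ratios were computed for all genes; the interval comparison was tested on simulated data. With 1 group there was no contrast and no differential test. Alternatives were TMM scaling (edgeR 4.0.16), DESeq2 1.42.0 size factors, pseudocounts of 0.1 and 5, thresholds of 10 CPM or 1 count, a 99% interval, the unstranded column, other totals and leaving out either library. Sequences came from RefSeq (GRCm38.p6), where all 5 members had a mature sequence and 4 a hairpin; hairpins were folded with RNAfold 2.7.2.

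The named genes are the members, their overlapping and neighbouring genes, the 3 genes nearest to each detected member, the 3 most abundant genes of each list, and genes a sentence on members turns on. The lists were other immune-expressed, erythroid, endothelial, mural and neuron. Members and lists were chosen with earlier results of these data known.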

Additional observations from a re-analysis of the deposited data

Results flagged for a closer look

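Opposite-strand counts do not enter the level of the gene they are listed at, and at 1 member they exceeded the limit of 3 counts. Mir142b had 140 opposite-strand counts in animal 1 and 80 in animal 2. These are the counts that Mir142 had on its own strand, where they entered its level. No other member had more than 3 opposite-strand counts in either animal. No group had 4 or more samples, so single samples could not be tested for standing apart.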

How the results depend on the processing

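The members outside counting error numbered 2 with TMM scaling, DESeq2 size factors, a 99% interval, no detection filter and the unstranded column alike. Members detected numbered 3, against 2 at 10 CPM in both libraries, where Mir223 was lost, 5 when 1 count in either library was enough, and 3 when either library was left out. Mir142 was lost without strand, as its mean fell from 33.4 to 0 CPM. The members held 0.153% of gene counts on average, 0.179% when the most abundant gene was left out of the total and 0.0653% of all mapped reads, both by construction of the total; leaving out either library gave 0.135 to 0.171%. Across scalings, pseudocounts and columns the log2 ratio of Mir150 ran from -0.34 to -0.31 and that of Mir223 from -1.66 to -0.84, the smallest with a pseudocount of 5. For Mir511 it also stayed below 0, inside counting error, as it did for Mir142 except without strand, where Mir142 had 0 counts and no ratio. No paired analysis was possible because both libraries belong to 1 group. Depth limits Mir223, Mir511 and Mir142b most, and with 2 animals the SD itself is imprecise.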

Other observations

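Mir142 is 1 of 64 miRNA genes in the tables with another miRNA gene on the opposite strand. Of these, 29 were detected on the read strand, and 26 of the 29 had 0 counts in both animals in the unstranded column, among them the erythroid Mir451a with 1698 and 100 counts and Mir486 with 148 and 87. Mir5121, the miRNA gene nearest to Mir150, had 71 counts in animal 1 and 23 in animal 2, or 16.1 and 10.1 CPM, the opposite order to that of Mir150.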
